A study of Homo sapiens with 26 samples.

Results

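Of the 15909 regions enriched for FLAG-tagged DNMT3B in HCT116 cells, 472 (2.97%, Wilson 95% interval 2.71 to 3.24%) had their midpoint inside no transcript that carries a gene name. They are called outside peaks here, and the other 15437 are called inside peaks. The gene models were those of the transcript assembly deposited with the study, which holds 53788 transcripts with a gene name and 73520 without one, all on the hg19 build. Membership was set by position alone. The outside peaks covered 1.09 Mb and the inside peaks 56.2 Mb. All intervals on shares below are Wilson 95% intervals over peaks or genes, and they cover counting error only.

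HCT116 is a human colorectal cancer cell line, and lentiviral lines of it, selected with puromycin, carried FLAG-DNMT3B (2 libraries), FLAG-ZBTB24 (3 libraries) or the FLAG tag alone (2 libraries), each with a matching input library. Each FLAG line is a single-cell clone, so a difference between clones cannot be told apart from one between constructs, and the ChIP measures tagged, introduced protein. RNA was sequenced from 3 libraries with a non-targeting hairpin (shNT), 3 with a hairpin against ZBTB24 (shZBTB24), 2 with the tag alone, 2 with FLAG-ZBTB24, 1 from cells with DNMT3B knocked out and 1 from the wild type. The peaks came as 1 merged list per factor with no value per library, so no spread between libraries could be given for any peak, and the depth behind the peaks is unknown.

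DNMT3B is a de novo DNA methyltransferase, and its PWWP domain binds histone H3 methylated at lysine 36, a mark laid down along transcribed gene bodies. Loss of DNMT3B function, or of the zinc finger protein ZBTB24, causes ICF syndrome, with immunodeficiency and loss of methylation at pericentromeric repeats. A peak outside every named gene therefore sits where the annotation records no gene body, and the questions asked of the outside peaks were how far they lay from named genes, on which side, and whether any assembled RNA without a name spanned them.

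A whole named transcript lay inside 2 of the outside peaks, in both cases a microRNA gene with the midpoint of the peak beside it. MIR4502 (hg19 chromosome 13, 115039303 to 115039383, plus strand, 81 bp) lay inside the peak chr13:115035174-115041673, whose score was 3.40. The named gene nearest to the midpoint of that peak was not MIR4502 but CDC16. The midpoint lay 274 bp past the end of CDC16, which held 3 DNMT3B peaks itself. MIR4720 (chromosome 16, 81418623 to 81418698, plus strand, 76 bp) lay inside the peak chr16:81417506-81418977, whose score was 3.30. A further microRNA gene, MIR4268 (chromosome 2, 220771223 to 220771286, minus strand, 64 bp), was the only named gene within the largest group of outside peaks and lay between peaks. All 3 genes were matched by name in RefSeq (GRCh38.p14), and their mature sequences are shown, 5′ to 3′, because these genes lay whole inside an outside peak or among the peaks of the largest group. Capitals mark the seed, bases 2 to 8.
hsa-miR-4502: gCUGAUGAugauggugcugaag
hsa-miR-4720-5p: cCUGGCAUauuugguauaacuu
hsa-miR-4720-3p: uGCUUAAGuuguaccaaguau
hsa-miR-4268: gGCUCCUCcucucaggaugug
The 4 mature sequences have 4 different seeds, so no 2 of them share a seed.

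Most outside peaks were centred just past the 3′ end of a named gene. The nearest named gene ended before the peak, in the direction of transcription, for 343 of 472 (72.7%, 68.5 to 76.5%), and began after it for 129 (27.3%). Of all bases outside named transcripts, 53.0% are downstream of their nearest named gene and 47.0% upstream. Assembly gaps and other sequence where no peak can be called were not taken out of these bases. How far this changes the base shares and ratios below was not tested. Within 1 kb of a gene's downstream end lay 124 peaks, or 26.3% of the outside peaks against 1.16% of the outside bases, a ratio of 22.7. These counts go by midpoint, and 122 outside peaks, at any distance, still shared bases with a named transcript at its 3′ side. The next stretch, 1 to 5 kb downstream, held 133 peaks (28.2% against 3.61% of bases, a ratio of 7.80), and from 5 to 10 kb there were 29 (6.14% against 3.34%, a ratio of 1.84). Within 10 kb downstream this adds up to 286 peaks (60.6%, 56.1 to 64.9%) on 8.11% of the bases. The same 10 kb upstream of gene starts held 63 peaks (13.3%, 10.6 to 16.7%) on 8.26% of the bases, and its first 1 kb held 9 (1.91% against 1.10%). The intervals of the downstream and the upstream share did not overlap.

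The median distance to the nearest named gene was 1808 bp for downstream peaks and 10170 bp for upstream ones (1665 and 8442 bp without a group of 30 neighbouring peaks on chromosome 2). Beyond 50 kb from any named gene lay 51 peaks (10.8%, 8.31 to 13.9%), although 56.5% of the outside bases, gaps included, are that far away. Where the flanking genes on both sides pointed their 3′ ends at the peak, 181 peaks were found (38.3% against 28.4% of bases). Between a pair of 5′ ends there were 50 (10.6% against 22.5%), and between 1 end of each kind 239 (50.6% against 49.1%).

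**Figure D1:**
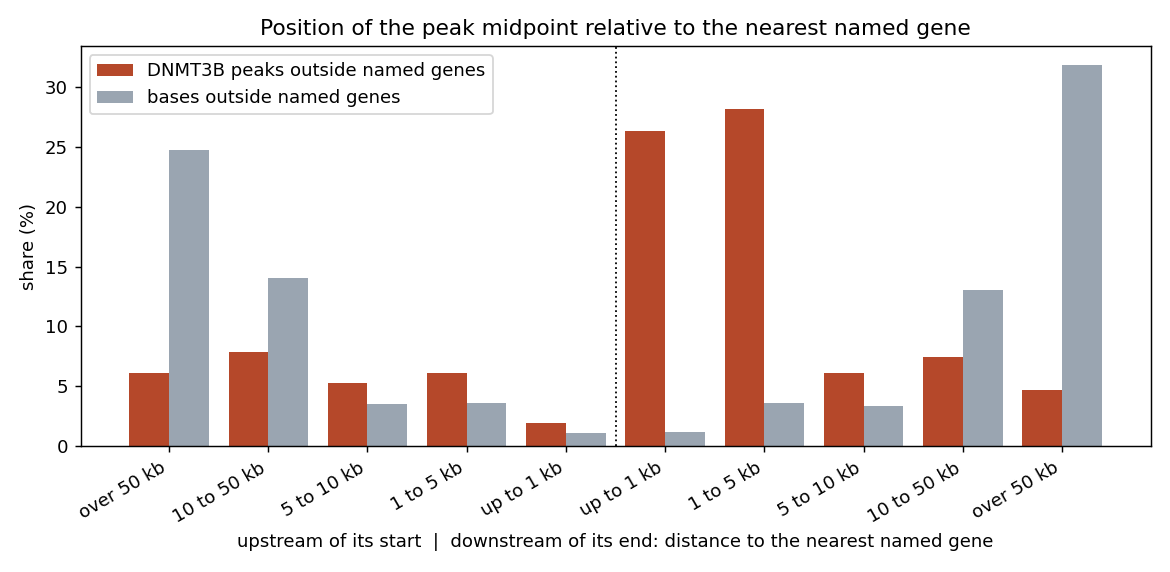
Share of the 472 outside peaks and share of all bases outside named genes, in percent, by distance to the nearest named gene and by side. Assembly gaps were not taken out of the bases. The first 2 downstream bins hold 26.3% and 28.2% of the peaks on 1.16% and 3.61% of the bases, and the bins beyond 50 kb hold less of the peaks than of the bases on both sides.

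The peaks of ZBTB24, the zinc finger protein tagged in the same cell line, were placed by the same rule and had another layout. Of 6173 ZBTB24 peaks, 4033 (65.3%, 64.1 to 66.5%) were outside named genes. Only 306 of those (7.59%, 6.81 to 8.45%) lay within 10 kb downstream, below the 60.6% of the outside DNMT3B peaks, and 424 (10.5%, 9.60 to 11.5%) within 1 kb upstream, above their 1.91%. Beyond 50 kb lay 1558 (38.6%). None of the 472 outside DNMT3B peaks shared a base with a ZBTB24 peak, a count of 0 that allows a share of up to 0.636% by the rule of 3 counts in the total, and 5 of the 15437 inside peaks did (0.0324%). The nearest ZBTB24 peak was a median of 169792 bp away from an outside peak, and never closer than 1379 bp.

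At the border of the rule, the 27 outside peaks whose midpoint lay within 100 bp past a gene end had a median score of 3.40 and a median width of 1695 bp, and the 25 inside peaks within 100 bp of an outer gene end had 3.32 and 2268 bp. In all, 131 outside peaks (27.8%) still shared at least 1 base with a named transcript, 122 of them at its 3′ side and 9 at its 5′ side.

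The score is the authors' own value for each peak, and since its kind was not given in the sources used here, it is used only to describe and rank peaks within the list. It was slightly lower outside genes, with a median of 3.34 (quartiles 3.19 and 3.51, range 2.47 to 4.67) against 3.39 (3.24 and 3.57, 2.18 to 5.41) for inside peaks. The ranges overlapped almost entirely. Outside peaks were also narrower, with a median width of 1881.5 bp (341 to 15619 bp) against 2504 bp (248 to 75667 bp). A width of 10 kb or more was reached by 5 outside peaks (1.06%, 0.453 to 2.46%) and by 836 inside peaks (5.42%, 5.07 to 5.78%). Another DNMT3B peak lay within 10 kb of 326 outside peaks (69.1%, 64.8 to 73.1%) and of 77.6% (77.0 to 78.3%) of inside peaks.

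**Figure D2:**
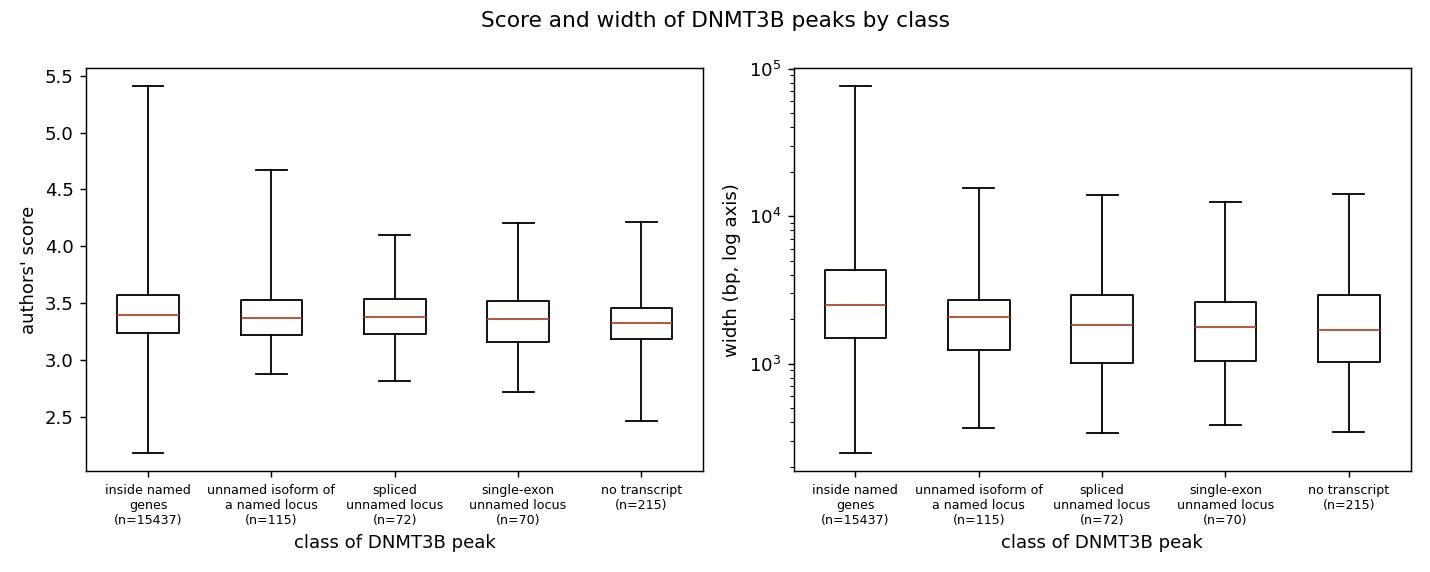
Score (authors' unit) and width (bp, log axis) of the outside peaks, by kind of transcript at the midpoint, beside the inside peaks. The score medians lie between 3.33 and 3.39 in every group, and the median width is 2504 bp inside genes and 1881.5 bp over the outside peaks.

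The strongest outside peak by score, 4.67, was chr6:41870040-41870563, 2789 bp past the end of MED20, a subunit of the Mediator complex that links transcription factors to RNA polymerase II. It lay in an intron of an unnamed 131140 bp transcript with 11 exons that the assembly places in one locus with MED20 and USP49, a deubiquitinase. The next, at 4.22, was chr5:1819000-1822398, in no transcript and 4532 bp past NDUFS6, a subunit of respiratory complex I. The peak chr12:93898601-93899946 (4.21) lay 1726 bp past MRPL42, a mitochondrial ribosomal protein gene, on an unnamed single-exon transcript of 9182 bp. All 3 lay within 5 kb past a gene end.

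The peak chr2:46760827-46761547 (4.21) differed from them in lying upstream, 8680 bp before the start of RHOQ, in an intron of an unnamed transcript from the locus of ATP6V1E2, a proton pump subunit. A score of 4.18 was given to chr1:22419949-22422253, 1665 bp past CDC42, a regulator of cell polarity. The peak chr8:30432779-30435541 (4.14) lay 1871 bp past GTF2E2, which encodes the smaller subunit of the general transcription factor TFIIE. Peaks 511 bp past the sorting nexin gene SNX11 (chr17:46198221-46203011) and 480 bp past SMYD4 (chr17:1681377-1683321) scored 4.08 and 4.07. The remaining 2 of the 10 highest lay farther out, 10001 bp upstream of LOC645513 (chr4:120365301-120366572, score 4.10) and 102818 bp past the anion exchanger gene SLC4A3 (chr2:220608763-220610277, score 4.06). Among peaks in no transcript, the fifth in rank was chr12:49036850-49037330 (4.05), 9905 bp past KANSL2, a subunit of the NSL histone acetyltransferase complex.

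Width picked other peaks. The widest, 15619 bp, was chr1:16952967-16968585 at CROCCP2, a pseudogene of the rootletin gene CROCC. It was followed by 14176 bp past C12orf45 (chr12:105382031-105396206), 13834 bp on chromosome 2 near MIR4268 (chr2:220777933-220791766), 13653 bp upstream of the mitochondrial creatine kinase gene CKMT1A (chr15:43961719-43975371) and 12408 bp past MRPL14 (chr6:44071783-44084190). The scores of these 5 ran from 3.23 to 3.71, so none of the widest was among the 10 highest.

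Although they carry no gene name, 257 of the 472 midpoints (54.4%, 49.9 to 58.9%) fell inside a transcript of the assembly. The other 215 (45.6%, 41.1 to 50.1%) fell inside none. By the same rule, 264 of the 4033 ZBTB24 peaks outside named genes (6.55%, 5.82 to 7.35%) fell inside an unnamed transcript. Those ZBTB24 peaks lay farther from genes, with 38.6% beyond 50 kb against 10.8%, and the shares were not matched for distance. The share of all bases outside named genes that unnamed transcripts span was not computed. The unnamed transcripts that held outside DNMT3B peaks were of 3 kinds. Unnamed isoforms of a locus that also holds a named gene spanned 115 (24.4%) in 95 loci, spliced transcripts of wholly unnamed loci 72 (15.3%) in 31 loci, and single-exon transcripts of unnamed loci 70 (14.8%) in 69 loci.

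Many of the unnamed isoforms belonged to the nearest gene's own locus. For 86 of the 115 peaks in them (74.8%) the nearest named gene belonged to the same locus, and for 56 (48.7%, 39.8 to 57.7%) the peak was also downstream of that gene with the isoform on its strand. The midpoint lay in an exon of any unnamed transcript that held it in 39 cases (33.9%) and in an intron in the rest. Exonic midpoints of the other kinds are counted in the same way. Where several unnamed transcripts of a kind held a midpoint, length and strand were those of the longest. The single-exon transcripts were short, with a median of 1701.5 bp. Of the 70 peaks on them, 64 (91.4%, 82.5 to 96.0%) were downstream of the nearest named gene and 55 (78.6%) on its strand. Of the 72 peaks in spliced unnamed loci, 33 were downstream (45.8%, 34.8 to 57.3%) and 29 on the strand of the nearest gene (40.3%, 29.7 to 51.8%). The median length of their transcripts was 155736 bp, and 8 of the 72 midpoints were exonic. A single locus on chromosome 2 held 29 of the 72. Without it the median length was 21867 bp, 19 of 43 peaks were downstream (44.2%), 26 on the strand of the nearest gene (60.5%, 45.6 to 73.6%) and 7 exonic. Peaks in no transcript were downstream in 167 of 215 cases (77.7%, 71.7 to 82.7%), with 74 within 1 kb.

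A transcript start of any kind lay within 1 kb of 152 outside peaks (32.2%, 28.1 to 36.5%) and of 1108 inside peaks (7.18%, 6.78 to 7.60%). The starts were mostly unnamed. An unnamed start was within 1 kb of 147 outside peaks (31.1%), and a named one within 1 kb of 10 (2.12%, against 0.713% of inside peaks).

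Of the 9 peaks within 1 kb upstream of a named gene, 6 were inside an unnamed transcript, in some cases a longer isoform of that gene. At RC3H1, which encodes the RNA-binding protein Roquin, the peak chr1:173961990-173964241 (score 3.34) was centred 906 bp before the named start and within an unnamed isoform of 91287 bp. The named span there is 61989 bp. The RC3H1 model of the present RefSeq annotation spans 91274 bp, a length taken from another build and compared as a length only. At ZNF609, a zinc finger gene, the peak lay 435 bp upstream (chr15:64790673-64791695, score 3.80) in an unnamed isoform of 225373 bp, where the named span is 186648 bp and the RefSeq model 226491 bp. For TCF20, a nuclear coregulator gene, the peak was 326 bp upstream, the unnamed isoform 110627 bp, the named span 55329 bp and the RefSeq model 183525 bp. In these 3 genes the newer model was longer than the named one by more than the distance to the peak. The same held for LRFN1 (peak 898 bp upstream in no transcript, 8520 bp as named, 14298 bp in RefSeq). It did not hold for DTX2P1-UPK3BP1-PMS2P11 (peak 850 bp upstream in an unnamed isoform, 42938 and 42940 bp) or MIR4720 (381 bp, 76 bp in both). The peak 512 bp before COX7A1, a subunit gene of cytochrome c oxidase, was in no transcript (score 3.33). The RefSeq model of COX7A1 was shorter than the named one (1526 against 1948 bp).

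The same comparison of lengths was made for every outside peak within 10 kb of a gene whose symbol has 1 place in the assembly and 1 RefSeq entry. The RefSeq model was longer by at least the distance to the peak for 86 of 313 (27.5%, 22.8 to 32.7%). By kind, these were 27 of 62 on single-exon transcripts (43.5%, 31.9 to 55.9%), 28 of 88 on unnamed isoforms (31.8%, 23.0 to 42.1%), 30 of 152 in no transcript (19.7%, 14.2 to 26.8%) and 1 of 11 in spliced unnamed loci. At the median distance of these peaks, 1608 bp, the model had grown by at least as much for 79 of the 313 (25.2%) and for 3802 of 23078 named genes in all (16.5%). LRCH3, for example, spans 80360 bp as named, 97227 bp as an unnamed isoform that held peaks 563 and 5307 bp past its end, and 97211 bp in RefSeq. A length does not say at which end the model grew.

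Genes next to an outside peak often held DNMT3B peaks in their body. The nearest named gene held at least 1 inside peak for 273 of the 472 (57.8%, 53.3 to 62.2%), while 5794 of 26242 named genes in all did (22.1%, 21.6 to 22.6%). The share was 66.1% (60.4 to 71.3%, 189 of 286) for peaks within 10 kb downstream, 46.0% (34.3 to 58.2%, 29 of 63) for those within 10 kb upstream, and 44.7% (36.2 to 53.5%, 55 of 123) for those beyond 10 kb. The downstream interval lay above the other intervals, but for the peaks beyond 10 kb this rested on 1 group of neighbouring peaks on chromosome 2. Without it their share was 57.9% (47.8 to 67.3%, 55 of 95), which overlapped the downstream interval. Counted over distinct genes, the shares were 65.9% (60.1 to 71.3%, 178 of 270) within 10 kb downstream, 48.3% (35.9 to 60.8%, 28 of 58) within 10 kb upstream and 53.8% (41.9 to 65.4%, 35 of 65) beyond 10 kb, and the downstream interval overlapped both others. Gene length was not taken into account, and its part in the result was not tested.

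PDIA5, a protein disulfide isomerase gene, held 11 inside peaks and had an outside peak 2558 bp past its end (score 3.36). The ubiquitin ligase gene TTC3 and the nuclear pore gene NUP210 held 10 each, with outside peaks 128 and 214 bp past their ends (3.22 and 3.30). The insulin-degrading enzyme gene IDE and RIF1, a regulator of replication timing, also held 10 each and had theirs at 3947 and 3007 bp (3.27 and 3.07). GOLGA4 and ANKRD27, with 9 each, had outside peaks 1099 and 1097 bp past their ends, and WDR60, a dynein-2 subunit gene, held 8 with an outside peak centred 19 bp past its end (3.80).

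**Figure D3:**
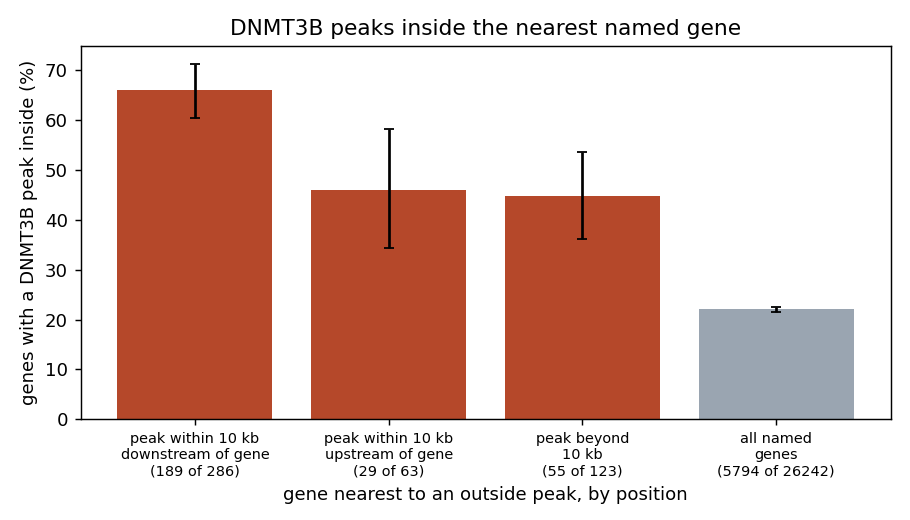
Percent of outside peaks whose nearest named gene holds at least 1 DNMT3B peak, by position, beside the percent of all named genes that do, with Wilson 95% intervals as bars. A gene nearest to several outside peaks is counted once for each. The share is 66.1% of the outside peaks within 10 kb downstream and 22.1% of all named genes.

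The peaks were spread thinly, with 1 exception. Joined at distances of up to 50 kb, the 472 formed 352 groups, of which 293 held 1 peak, 39 held 2 and 20 held 3 or more (101 peaks, 21.4%). The largest group, chr2:220608763-220948498, held 30 peaks, which is 6.36% of all outside peaks and 46.9% of the 64 on chromosome 2. Of these, 29 lay within 1 unnamed locus on the plus strand, 220553199 to 220937892 (385 kb), assembled as 13 overlapping transcripts of 2 to 6 exons and 7.80 to 186 kb. In the group 28 midpoints were intronic and 2 exonic. The scores ran from 3.10 to 4.06 with a median of 3.38, much as in other outside peaks, and the peaks covered 79.7 kb, 23.5% of the 340 kb from first to last.

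The first peak began 55.6 kb into the locus, and from there neighbours were a median of 4790 bp apart, with a largest gap of 36.5 kb. The locus held no ZBTB24 peak. It held no inside DNMT3B peak either, which the rule nearly fixes, since its only named gene, MIR4268, is 64 bp long. Of the 51 peaks beyond 50 kb from a named gene, 25 were in this group. The other 26 were 5.88% of the 442 remaining peaks, and 11 of them (42.3%, 25.5 to 61.1%) were inside an unnamed transcript, against 36 of 51 with the group (70.6%, 57.0 to 81.3%).

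**Figure D4:**
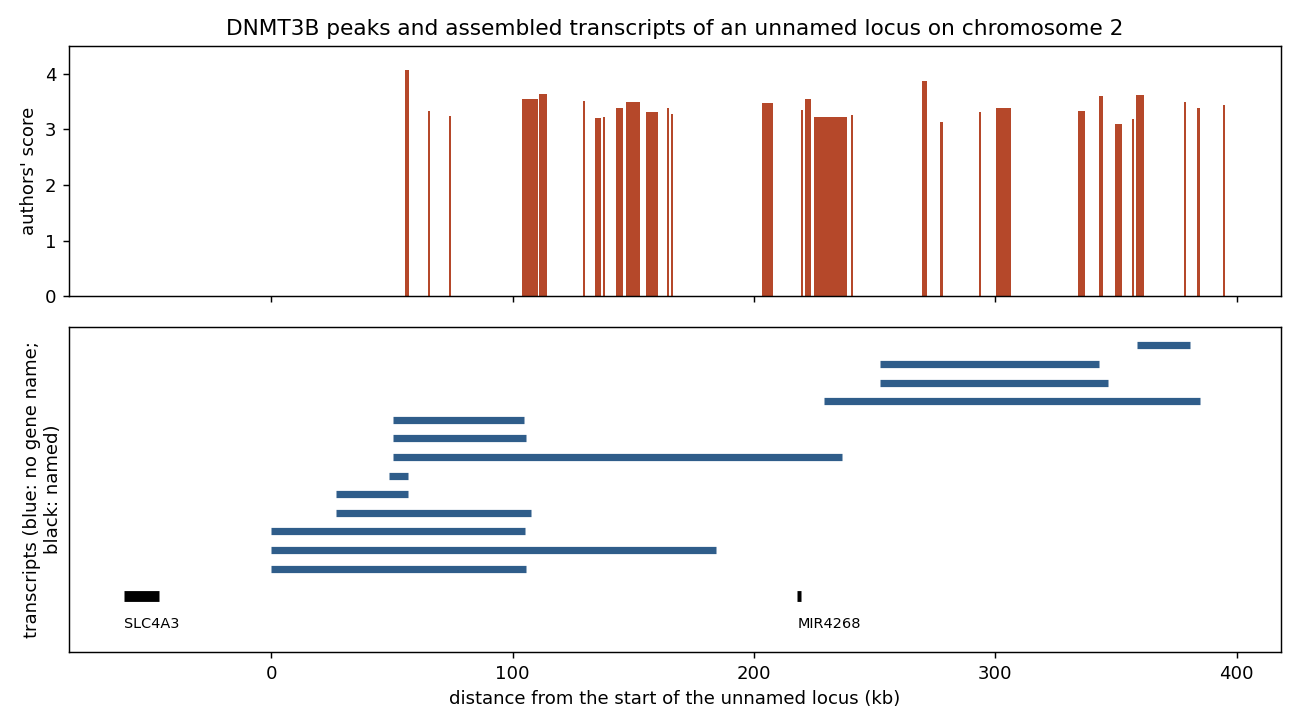
The largest group of outside peaks, by distance in kb from the start of the unnamed locus on chromosome 2: peak scores as bars over each peak's extent, with the 13 assembled transcripts and the named genes of the region. The 30 peaks begin 55.6 kb into the locus and reach scores of 3.10 to 4.06.

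Several of the smaller groups had members of duplicated families or pseudogenes as their nearest genes, at distances that differed widely. Around the chromosome 5 region of the survival motor neuron genes, 5 peaks lay at chr5:69202603-69219543 and 5 at chr5:70067969-70092436, all in no transcript and all nearest to SERF1A, a symbol that the assembly places at more than 1 position. They were far from it, 102066 to 127324 bp upstream. SMN2, the second copy of the survival motor neuron gene, was nearest to 6 peaks. On chromosome 16, 7 peaks at 29435024 to 29526534 lay among NPIPB11, SMG1P2, LOC606724 and LOC613038, and 4 at 21874214 to 21920570 near NPIPB4, a member of the same duplicated family. LINC01000 on chromosome 7 was nearest to 5 peaks and DTX2P1-UPK3BP1-PMS2P11, a transcribed pseudogene, to 4. The assembly places these symbols, NPIPB11 and NPIPB4 at 1 position each. The nearest symbol had more than 1 place for 34 outside peaks (7.20%, 5.20 to 9.90%), and counted over symbols this was 15 of 379 nearest genes (3.96%, 2.41 to 6.43%), against 432 of 26175 symbols in all (1.65%). The handling of reads that match more than 1 copy was not given in the sources used here, and the peaks of such copies cannot be told apart.

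Of the other groups, 3 peaks at chr17:46711856-46718637 (scores 3.38 to 3.63) lay inside unnamed transcripts 2881 to 8142 bp upstream of MIR196A1, a microRNA gene of the HOXB cluster. Between LRCH3 and IQCG, 3 peaks at chr3:197597844-197611451 scored 3.33 to 4.05. A further 3 at chr8:126744404-126762710 (3.07 to 3.76) lay in an unnamed locus, and the first of them was in an intron of a transcript of 437139 bp, 189794 bp past LINC00861. At chr7:65937602-65951849, 3 peaks (3.19 to 3.90) lay in an unnamed spliced locus, the highest of them 51453 bp past GS1-124K5.11. The fifth in score of the peaks beyond 50 kb, chr7:56440363-56442271 (3.66), was on a single-exon transcript of 290 bp near LOC650226. The 472 peaks had 379 different nearest genes, and MIR4268 (29 peaks), SERF1A (10), SMN2 (6) and LINC01000 (5) were those with 5 or more.

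Chromosome by chromosome, the outside share of DNMT3B peaks ran from 1.36% (0.529 to 3.43%) on chromosome 13 to 5.00% (3.62 to 6.87%) on chromosome 7, and 0 of 17 peaks on chromosome X were outside (Wilson upper bound 18.4%). Chromosome 2 stood at 4.96% (3.90 to 6.28%) with the large group and at 2.70% (34 of 1261) without it.

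**Figure D5:**
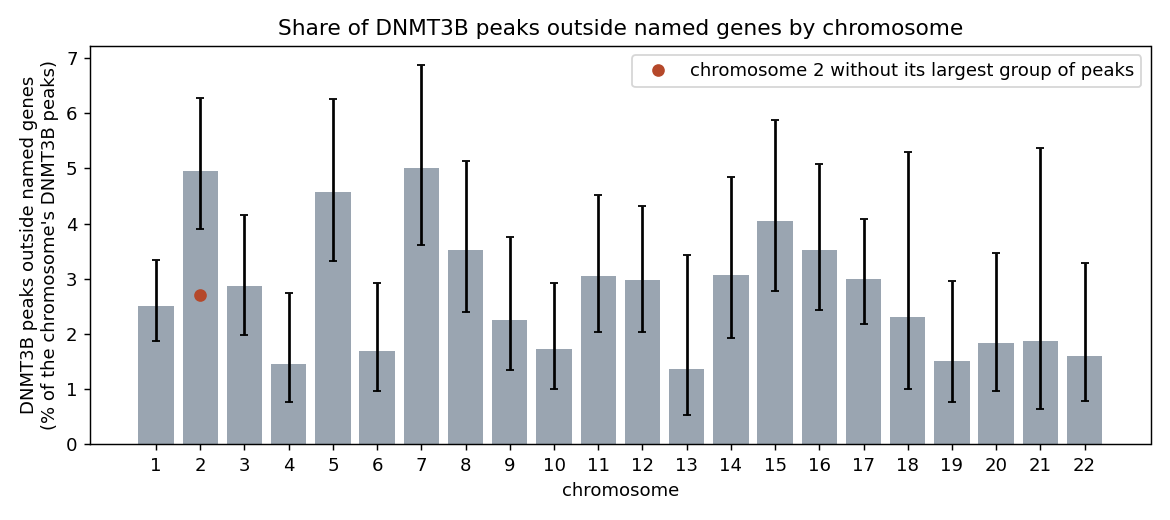
Percent of each autosome's DNMT3B peaks that lie outside named genes, with Wilson 95% intervals as bars. The point marks chromosome 2 without its largest group, 2.70% in place of 4.96%.

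Among gene families fixed as lists, few were next to an outside peak. Of 669 zinc finger genes, 123 held an inside peak (18.4%) and 4 were nearest to an outside one, namely ZNF609, ZNF598 (65 bp past its end, score 3.43), ZNF576 (418 bp, 3.39) and ZNF706 (6106 bp, 3.11). Of 4127 non-coding RNA genes, 98 held an inside peak (2.37%) and 19 were nearest to an outside one. Of 20 genes for DNA methylation and H3K36 methylation, 17 held an inside peak (85%) and 0 were nearest to an outside one. No protocadherin (72 genes), histone (71) or keratin gene (64) held a peak or was nearest to one, while 1 of 398 olfactory receptor genes and 1 of 43 HOX genes held an inside peak and none was nearest to an outside one. Over all symbols, 5793 of 26175 held an inside peak (22.1%) and 379 (1.45%) were nearest to an outside one.

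Expression around the outside peaks could be read only for named loci, because no row in any of the authors' deposited tables lacked a gene symbol. Peaks in wholly unnamed loci, that on chromosome 2 included, thus have no expression value of their own. The tables list only part of all loci, so a locus not listed cannot be told apart from one that did not change. Of 10 colorectal epithelial markers, the authors' deposited tables list CDH1 and CDX2 for the ZBTB24 knockdown, and none of the 10 markers of other cell types appears in any table. Of the 20 methylation genes, the authors' deposited tables list WHSC1 for the knockdown, DNMT3A for the knockout and the locus shared by MICAL1 and ZBTB24 for FLAG-ZBTB24, and of these the last had a q under 0.05.

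The authors' deposited table for the knockdown of ZBTB24 could be read for 42 outside peaks, which were joined to 41 listed loci, either because the locus spans the midpoint or because it holds the nearest named gene. Of these loci 14 (34.1%) had a q under 0.05, against 22.0% of the 1965 loci in the table, and 28 were higher and 13 lower in shZBTB24. All 41 had an unadjusted p under 0.05 there, and how many of the 1965 did was not counted. Both shares thus hold among listed loci only. The median log2 fold change was 0.58 for the 41 and 0.55 for all listed loci. The smallest change among the 41, in either direction, was 0.51 at SS18, so a median of this size mainly shows which direction held more loci. How all 1965 listed loci split into higher and lower was not counted. Whether the 3 libraries of a hairpin group are separate cultures is not stated in the labels, so the spread behind these q-values may be technical.

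Of the 14, 9 were higher after knockdown in the authors' deposited table. EIF2AK2, the double-stranded RNA-activated kinase PKR, was listed at 20.9 FPKM in shNT and 46.8 in shZBTB24 (log2 fold change 1.16, q = 0.0164). Its listed locus spanned the midpoint of an outside peak in an unnamed isoform. The named gene nearest to that peak was GPATCH11, whose end lay 1127 bp before the midpoint. For TOMM5, a subunit of the mitochondrial import pore with an outside peak 3208 bp past its end, the authors' deposited table has 74.7 FPKM in shNT and 152 in shZBTB24 (1.02, q = 0.00493). It puts VIPAS39, a vesicle trafficking gene listed with NOXRED1, at 9.95 and 19.6 FPKM (0.98, q = 0.00493). DPY30, a subunit of H3K4 methyltransferase complexes, is entered in the authors' deposited table with 77.5 and 141 FPKM (0.86, q = 0.0183). SCP2, the sterol carrier protein, has 28.1 and 51.9 FPKM there (0.89, q = 0.0139), and ENSA, an inhibitor of the phosphatase PP2A, 39.3 and 71.9 (0.87, q = 0.0259). Also higher in the authors' deposited table were DNAJC10, a disulfide reductase of the endoplasmic reticulum, at 30.6 and 53.9 FPKM (0.82, q = 0.0270) and TCHP, the keratin-binding trichoplein, at 2.60 and 5.06 (0.96, q = 0.0316).

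The other 5 were lower in shZBTB24 in the authors' deposited table. It gives the locus of MIR100HG, the host transcript of let-7a-2 and other microRNAs, as 49.0 FPKM in shNT and 25.6 in shZBTB24 (-0.94, q = 0.00493), with an outside peak 135357 bp away. WDYHV1, an amidase that acts on N-terminal glutamine, is put by the authors' deposited table at 18.7 and 9.24 FPKM (-1.01, q = 0.00493), and CCBL1, a kynurenine aminotransferase, at 5.92 and 2.77 (-1.09, q = 0.0437). The remaining 2 in the authors' deposited table were duplicated genes, FAM72C with FAM72D (4.95 to 2.01 FPKM, -1.30, q = 0.0139) and NPIPB11 (1.89 to 0.785 FPKM, -1.27, q = 0.0468), whose copies cannot be told apart.

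In the authors' deposited table for FLAG-ZBTB24 against the tag alone, 69 outside peaks were joined to 54 listed loci, and 0 had a q under 0.05, where 0.570% of all listed loci did. Of the 54, 34 were higher and 20 lower with FLAG-ZBTB24, and their median log2 fold change was 0.57, against -0.51 for all loci in the authors' deposited table. The smallest change among the 54, in either direction, was 0.50 at the locus of NBPF20. Medians of this size therefore mainly show which direction held more loci, and the split of all listed loci was not counted. At an unadjusted p under 0.05 there were 2, SNRPE, a spliceosome core protein gene (139 to 54.4 FPKM, log2 -1.35, q = 0.149), and C3orf35 (2.18 to 5.35 FPKM, 1.29, q = 0.483). The DNMT3B knockout comparison had 1 library per group. There, 35 outside peaks were joined to 32 loci that the authors' deposited table lists for the knockout, and 0 had a q under 0.05 (0.312% of all listed), with 1 at an unadjusted p under 0.05. That 1 was FKBP11, a prolyl isomerase gene with an outside peak 1919 bp upstream of its named start, for which the authors' deposited table gives 9.21 FPKM in the wild type and 46.8 in the knockout (log2 2.35, q = 0.327). All 32 were higher in the knockout, as were all loci listed under that label, so nothing can be read from the shared direction. The median log2 fold change was 1.60 for the 32 and 2.12 for all loci listed for the knockout in the authors' deposited table.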

How the data were processed

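The peaks, their hg19 positions and 1 score per peak were used as the authors deposited them, in 1 merged list per factor, and nothing was given per library. HISAT2, StringTie, Cufflinks and MACS2 are named in the submitters' processing notes, with versions not given in the sources used here. Each expression table, as deposited, has a single FPKM value for each group of libraries, with no depth. The log2 fold change, test statistic, p-value and q-value of a locus are also the authors' own. Left out were 1112 rows of the knockout comparison, whose label matches no sample used here.

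A peak was placed by its midpoint against every deposited transcript. Distances ran from the midpoint to the nearest end of a named transcript, and side followed that gene's strand. The background of bases was read every 100 bp outside named transcripts, from the first to the last named base of a chromosome. Assembly gaps were not taken out of it. Shares carry Wilson 95% intervals, and no test across libraries was possible. Loci were joined to tables by symbol or by spanning the midpoint. The named peaks were the 10 of highest score, the 5 widest, the 5 highest inside an unnamed transcript, inside none and beyond 50 kb, genes nearest to 5 or more peaks, and loci past q of 0.05. Other examples were chosen after their values were seen. Placement inside or outside named genes, side and distance were checked with points placed on the deposited gene models. The background of bases was checked on a single chromosome. Group joining and the kinds of unnamed transcript were not checked in this way. Python 3.11.15, numpy 2.4.6, pandas 2.3.3 and scipy 1.17.1 were used. The peaks and the gene lists were chosen with earlier results of these data known. No peak sequence was printed, since no hg19 genome was used here. Some items that the naming rule or the marker lists pick are not reported here.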

Additional observations from a re-analysis of the deposited data

How the results depend on the processing

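No paired analysis was possible because each factor has 1 merged peak list and the expression tables give a single pooled value per group, so no replicate could be left out either. Requiring that no base of the peak overlap a named transcript left 341 peaks, 2.14% of all. Keeping scores at or above the median of all DNMT3B peaks left 193 (2.43%), of which 60.1% were inside an unnamed transcript, and the upper quartile left 85 (2.14%), of which 60% were. Counting unnamed transcripts of 2 or more exons only, that share was 39.6%. With 5 kb in place of 10 kb, 54.4% were downstream and 8.05% upstream of a gene, and with 20 kb 18.2% were upstream. The far share was 17.4% beyond 20 kb and 6.57% beyond 100 kb, and 5.88% beyond 50 kb without the chromosome 2 group, an alternative chosen after seeing the data, like leaving out peaks near copied genes. A transcript start was within 500 bp of 21.2% and within 2 kb of 44.5%. Joined only by a nearest gene within 10 kb, 33 loci were listed for FLAG-ZBTB24 and 16 for the knockout. The other 16 values from alternatives moved by less than their interval, or by less than 1.5 times for a count. Wider windows hold more peaks by construction. For the score settings the cause was not tested.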
